A study of Brachypodium distachyon with 12 samples.

Results

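Laccases are secreted multicopper oxidases of the plant cell wall. They oxidize monolignols, the phenylpropanoid alcohols made inside the cell, to radicals that couple into lignin, the polymer that stiffens and waterproofs the walls of xylem vessels and fibers. In Brachypodium distachyon, a model grass, loss of LAC5 lowers the lignin content of the culm, and LAC8 has been studied as a further lignin laccase beside it.

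BdLAC5 (Bradi1g66720), BdLAC6 (Bradi1g74320) and BdLAC8 (Bradi2g23370) were taken by identifier from 34310 transcripts. Each of the 3 genes matched 1 transcript, of 2209 bases for LAC5, 2167 bases for LAC6 and 2417 bases for LAC8. The gene names are those in use for these identifiers, and the count tables themselves hold identifiers only.

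The libraries came from wild-type Bd21-3 plants at an age of 19 days by the sample labels, with no treatment and no mutant among the groups used here. Vascular bundles (VBs) and a control tissue were cut from cryo-sections of the shoot apex by laser capture microdissection, a method that lifts chosen cells out of a tissue section, and RNA was amplified from an input of 500 pg. VB type 1 had 0 visible protoxylem cells, VB type 2 had 1 or 2 and VB type 3 had 3 to 4, and the control was parenchyma from the middle of the stem, with 3 libraries in each group. Protoxylem is the first xylem to mature and carries lignified wall thickenings. The labels give meristem as the tissue of every library. Each replicate pooled dissected pieces from few plants, and the study's methods count the replicates as biological while the deposited design text mentions 1. If they were not separate plants, the p-values cover only the spread between these libraries. In tissue pieces, fewer cells of a type and less RNA per cell cannot be told apart.

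Between 12888132 and 27218311 read pairs were counted per library (median 20141260). A single transcript, Bradi2g12067.1, held 15.1 to 54.2% of the pairs in 11 libraries and 86.3% in parenchyma replicate 3. A library with 0 pairs of a transcript allows up to 3 pairs, which corresponds to 0.0719 to 0.166 CPM (pairs scaled to library totals normalized by TMM) in all libraries but parenchyma replicate 3, where the limit was 1.37 CPM. Such limits and the Poisson intervals given here cover counting error only. The xylem protease XCP1 (Bradi2g39320) had 148 to 994 CPM in the 9 VB libraries and 1.29 to 18.0 CPM in the 3 parenchyma libraries, without overlap. Replicate 1 of the VB types stood apart from the other VB libraries. The summed level of the 6 vascular markers was 194 to 308 CPM in these 3 libraries. It was 704 to 1055 CPM in VB replicates 2 and 3 and 9.58 to 25.4 CPM in parenchyma. XCP1 made up most of this sum in VBs, with 245 of 308 CPM in VB type 1 replicate 1. The other markers differed among themselves. The secondary-wall gene CESA8 had 1.07 to 2.62 CPM in VB replicate 1 and 2.93 to 17.5 CPM in VB replicates 2 and 3. The procambium gene PXY had 18.95 to 27.3 CPM in VB replicate 1 and 8.10 to 43.8 CPM in VB replicates 2 and 3. The summed level of 16 genes listed for lignin biosynthesis was 79.6 to 154 CPM in VB replicate 1, 610 to 1611 CPM in VB replicates 2 and 3 and 272 to 445 CPM in parenchyma. The depth was 16907265 to 22527248 pairs in VB replicate 1 and 18177573 to 24210355 pairs in VB replicates 2 and 3, and the part of depth in the results below was not tested.

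All 3 laccases were scarce in these tissues. LAC8 was the most abundant, with 1346 pairs over the 12 libraries, more than 3 pairs in 6 libraries and 0 pairs in 5. LAC6 had 207 pairs, with more than 3 pairs in 7 libraries and 0 in 4. LAC5 had 22 pairs, with more than 3 pairs in 3 libraries and 0 in 8. Ordered by mean CPM over the 12 libraries, LAC8 ranked 12711, LAC6 ranked 18969 and LAC5 ranked 21477 of the 34310 transcripts. Per kilobase of transcript, LAC8 averaged 4.85 ± 4.25 CPM in VB type 3, while LAC6 averaged 0.113 ± 0.197 and LAC5 0.0167 ± 0.0288 CPM per kilobase there (SD, n = 3). In parenchyma the order was turned, with 0.375 ± 0.573 CPM per kilobase for LAC5, 0.147 ± 0.255 for LAC6 and 0.0368 ± 0.0637 for LAC8 (SD, n = 3), but the value for LAC5 rests on 11 pairs and all 3 differ by less than their spread.

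**Figure D1:**
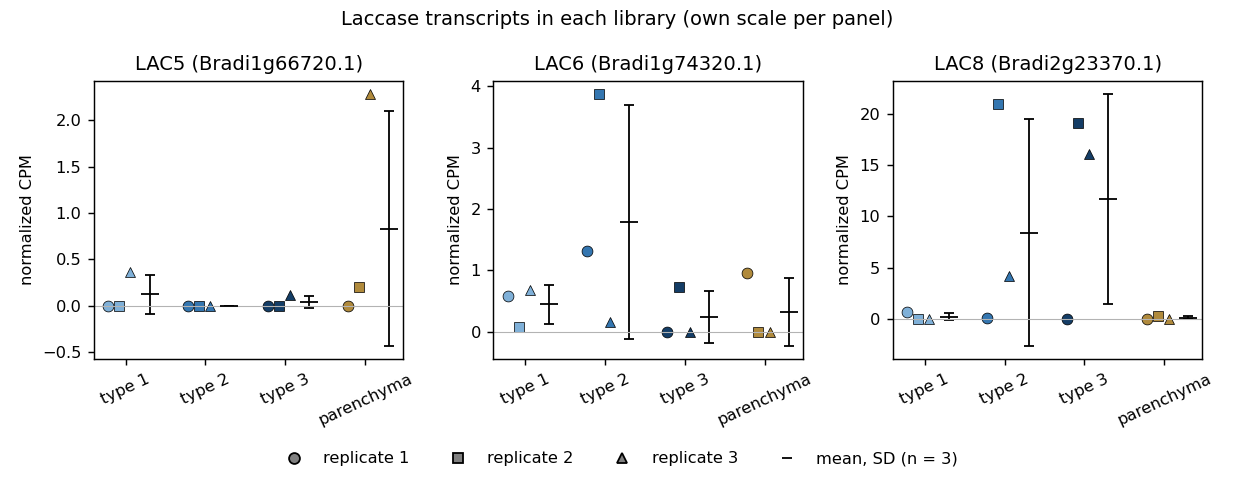
Normalized CPM of LAC5, LAC6 and LAC8 in each of 12 libraries (points, with the symbol giving the replicate number) and the mean with SD of each group (black, n = 3); the y axes are linear and differ between panels. LAC8 lies at 4.18 to 21.0 CPM in replicates 2 and 3 of VB types 2 and 3 and at 0.626 CPM or less in the other 8 libraries.

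LAC8 transcripts were found mainly in bundles that had protoxylem. In VB type 1, LAC8 had 14, 0 and 0 pairs in replicates 1, 2 and 3, or 0.626, 0 and 0 CPM. In VB type 2 it had 1, 433 and 107 pairs, or 0.0409, 21.0 and 4.18 CPM. In VB type 3 it had 0, 492 and 291 pairs, or 0, 19.1 and 16.1 CPM, and in parenchyma 0, 8 and 0 pairs, or 0, 0.267 and 0 CPM. The 4 high libraries were replicates 2 and 3 of VB types 2 and 3. Replicate 1 of both types was as low as parenchyma, so that each VB type overlapped with parenchyma and the VB types overlapped with one another. Counting error was small beside this spread: the 95% Poisson interval was 17.5 to 20.9 CPM in VB type 3 replicate 2 and 3.42 to 5.05 CPM in VB type 2 replicate 3. In VB type 3 replicate 1, where no pair was counted, the limit of 3 pairs was 0.164 CPM.

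The group means of LAC8 were 0.209 ± 0.362 CPM in VB type 1, 8.40 ± 11.1 CPM in VB type 2, 11.7 ± 10.3 CPM in VB type 3 and 0.0889 ± 0.154 CPM in parenchyma (SD, n = 3 each). From high to low, the order was type 3, type 2, type 1, and then parenchyma. No neighbours in this order differed beyond their spread, the step from VB type 2 to VB type 1 included, because VB type 2 replicate 1 had 0.0409 CPM. In the 4 high libraries between 5318 and 12243 transcripts had more CPM than LAC8.

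The test was the quasi-likelihood test of edgeR at a threshold of 0.05 after Benjamini-Hochberg adjustment over all transcripts of a comparison. The study's filter, run here as at least 1 CPM in 3 of 6 or 6 of 12 libraries, removed most of the laccase tests. LAC6 passed it in VB type 2 against parenchyma and LAC8 in VB type 3 against VB type 2, and LAC5 passed it in none of the 7 comparisons. The members below the filter were therefore tested in a fit of all transcripts without it. With the filter, the share of transcripts called in either direction was 5.02% in all VBs against parenchyma, 0% in VB type 1, 0.12% in VB type 2 and 0.883% in VB type 3 against parenchyma. Of these, 208 were higher and 631 lower in all VBs, 5 and 15 in VB type 2 and 23 and 122 in VB type 3. With library totals in place of TMM the split was 68 higher and 77 lower in all VBs, 27 and 10 in VB type 2 and 10 and 22 in VB type 3. The median log2 fold change of all transcripts was then 0.18 to 0.32 in all VBs, VB type 1 and VB type 2. Adjusted p of LAC8 with library totals is given below. Without the filter, these shares were 3.8%, 0.419%, 1.39% and 2.19%. Between VB types 0% was called with or without the filter, although 362 to 469 transcripts with the filter and 767 to 932 without it had an unadjusted p below 0.05. Against parenchyma without the filter, an unadjusted p below 0.05 in the quasi-likelihood test was reached by 4481 of 28195 transcripts in all VBs. The counts were 2862 of 26756 in VB type 1, 2637 of 25982 in VB type 2 and 3179 of 25987 in VB type 3. Against this background, 0 of the 3 laccases were called in any of the 7 comparisons by edgeR's quasi-likelihood test. An unadjusted p below 0.05 in this test was reached by LAC8 in 5 comparisons, by LAC5 in 2 and by LAC6 in 0. LAC8 was called in 1 comparison by edgeR's likelihood ratio test and in 2 by DESeq2, while LAC6 was called in 0 by either. With the filter, the likelihood ratio test called 702 of 16427 transcripts in VB type 3 against parenchyma. DESeq2 called 929 of these, and 749 of 16733 in VB type 2 against parenchyma. The quasi-likelihood test called 145 and 20 there. The LAC8 calls came from fits without the filter, for which the share called by these tests is not given.

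For LAC8 the widest differences were those of VB types 3 and 2 against parenchyma. SE here was derived from the log2 fold change and the F statistic of the test, and is a rough guide at low counts. The log2 fold change was 6.60 (SE 1.91) in VB type 3 against parenchyma, with adjusted p = 0.0613 by edgeR's quasi-likelihood test over 25987 transcripts. In VB type 2 against parenchyma it was 6.16 (SE 2.20), with adjusted p = 0.245 by the same edgeR test. Neither passed the threshold. Since parenchyma held 8 pairs in all, the size of these fitted values depends on the prior count. In VB type 1 against parenchyma the log2 fold change was 0.96 (SE 2.56) and the adjusted p of the edgeR test was 0.915, and in all VBs against parenchyma these were 4.52 (SE 2.05) and 0.269. The value for all VBs was 8.95 (SE 3.46) without parenchyma replicate 2, the one parenchyma library with LAC8 pairs, and could not be estimated without VB type 1 replicate 1 (SE 89.95), since VB type 1 then held 0 pairs.

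The call for VB type 3 against parenchyma turned on the test and on single libraries. Adjusted p of LAC8 was 0.0485 by edgeR's likelihood ratio test, which is the test named in the study's methods, and 0.0234 by DESeq2, both without the filter. Without VB type 3 replicate 1 it was 0.00175, without parenchyma replicate 2 it was 0.00207 and without parenchyma replicate 1 it was 0.0329 by edgeR's quasi-likelihood test, while it was 0.354 without VB type 3 replicate 2, 0.110 without VB type 3 replicate 3 and 0.0516 without parenchyma replicate 3. With library totals in place of TMM it was 0.379 and with read counts in place of pairs 0.184 in the same edgeR test. In VB type 2 against parenchyma, adjusted p was 0.0417 by DESeq2, 0.0358 without VB type 2 replicate 1 and 0.0466 without parenchyma replicate 2 in the edgeR test, against 0.767 without VB type 2 replicate 2. It was 0.127 by edgeR's likelihood ratio test and 0.670 with library totals by the quasi-likelihood test.

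Between the VB types, the fitted LAC8 level was higher in both protoxylem-bearing types than in type 1, without a call. In replicate 1 the order was turned, with 0.626 CPM in VB type 1, 0.0409 CPM in type 2 and 0 CPM in type 3. The log2 fold change was 5.34 (SE 2.15) in VB type 2 against VB type 1, with adjusted p = 0.947, and 5.78 (SE 1.97) in VB type 3 against VB type 1, with adjusted p = 0.897, both by edgeR's quasi-likelihood test without the filter. VB types 3 and 2 differed by a log2 fold change of 0.48 (SE 1.81, adjusted p = 1, edgeR quasi-likelihood test with the filter). Taken as a rough guide, this SE leaves room for a difference of several fold either way. The comparisons share libraries, so these values are not independent of those against parenchyma.

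**Figure D2:**
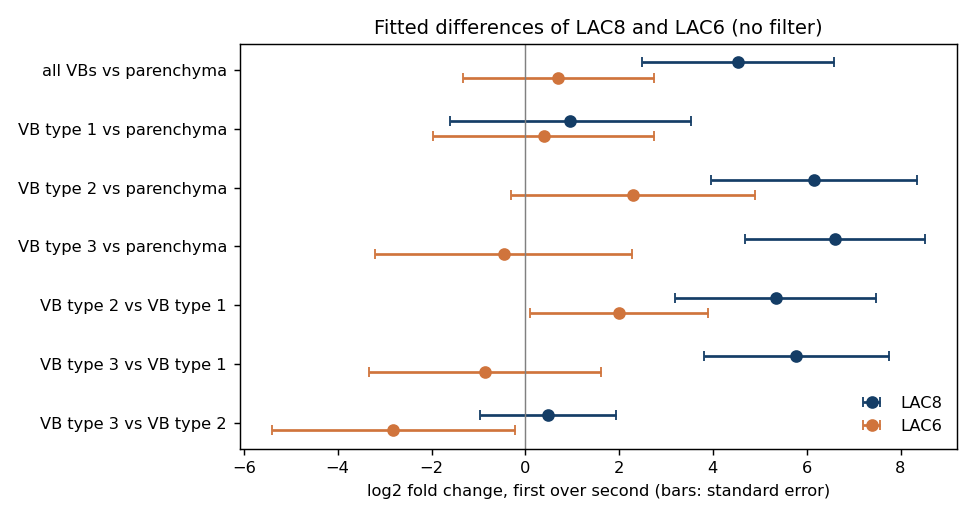
Log2 fold changes (points) with SE (bars) of LAC8 and LAC6 in the 7 comparisons, each as the first group over the second. Fits were by edgeR without a filter on low counts, and SE was derived from the F statistic of the test. LAC8 lies at 4.52 to 6.60 in the comparisons of all VBs and of VB types 2 and 3 with parenchyma or with VB type 1, and at 0.96 and 0.48 in the other 2, while LAC6 lies between -2.81 and 2.30.

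LAC8 was next set beside XCP1, a papain-type protease of tracheary elements, library by library. For each 1000 XCP1 pairs, LAC8 had 2.55, 0 and 0 pairs in VB type 1, 0.276, 24.5 and 4.23 pairs in VB type 2 and 0, 19.2 and 22.1 pairs in VB type 3. In parenchyma, LAC8 had 0, 14.8 and 0 pairs for each 1000 XCP1 pairs. The value in parenchyma replicate 2 rests on 8 LAC8 pairs beside 541 XCP1 pairs and lies above that of VB type 2 replicate 3. Like the CPM, the ratio was low in replicate 1 of VB types 2 and 3 and higher in replicates 2 and 3. VB type 1 replicates 2 and 3 had 587 and 683 CPM of XCP1 and 0 pairs of LAC8, whereas VB type 3 replicate 3 had 727 CPM of XCP1 and 291 pairs of LAC8. The 3 VB libraries of replicate 1 had 148 to 245 CPM of XCP1, and the other VB libraries 587 to 994 CPM. The part of this difference between replicates in the LAC8 values was not tested.

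**Figure D3:**
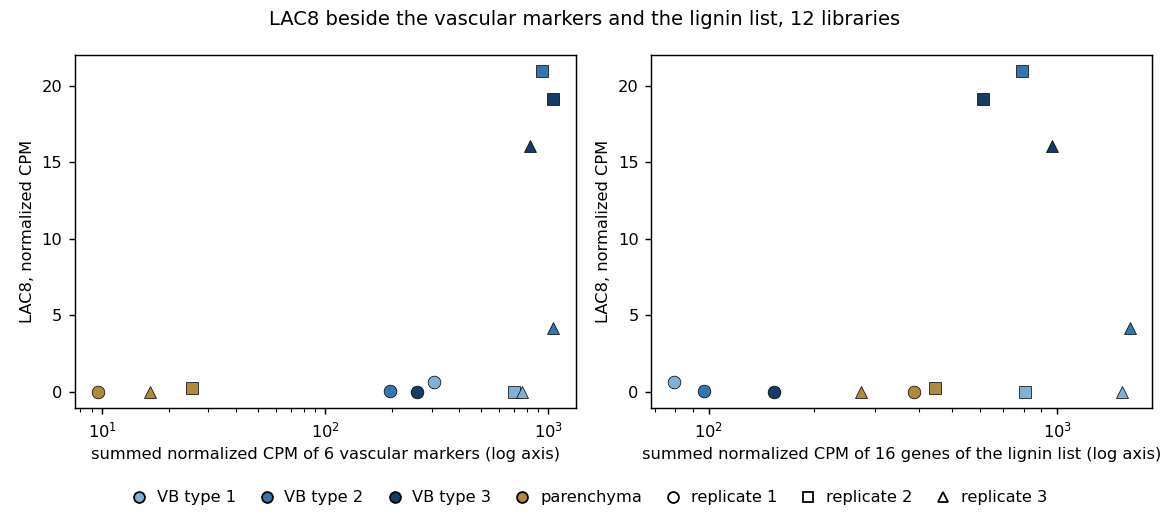
LAC8 in normalized CPM (linear y axis) against the summed CPM of 6 vascular markers (left, log x axis) and of 16 lignin genes (right, log x axis) in 12 libraries; color gives the group and symbol the replicate number. XCP1 makes up most of the marker sum in the VB libraries. VB replicate 1 libraries lie at 194 to 308 CPM of markers and VB replicates 2 and 3 at 704 to 1055 CPM. VB type 1 replicates 2 and 3 have 0 CPM of LAC8 in the second range.

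LAC6 was patchy across all groups. It had 13, 2 and 17 pairs in VB type 1 (0.582, 0.0844 and 0.684 CPM), and 32, 80 and 4 pairs in VB type 2 (1.31, 3.88 and 0.156 CPM). VB type 3 had 0, 19 and 0 pairs (0, 0.738 and 0 CPM) and parenchyma 40, 0 and 0 pairs (0.958, 0 and 0 CPM). The highest library was VB type 2 replicate 2, which was also the highest for LAC8, but LAC6 was detected in VB type 2 replicate 1 and in parenchyma replicate 1, where LAC8 had 1 and 0 pairs. All groups overlapped.

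The mean levels of LAC6 were 0.450 ± 0.321 CPM in VB type 1, 1.78 ± 1.91 CPM in VB type 2, 0.246 ± 0.426 CPM in VB type 3 and 0.319 ± 0.553 CPM in parenchyma (SD, n = 3 each). The order from high to low was type 2, type 1, parenchyma and type 3, and no neighbours differed beyond their spread. In VB type 2 against parenchyma, where LAC6 passed the filter, the log2 fold change was 2.29 (SE 2.06) with adjusted p = 0.847 by edgeR's quasi-likelihood test. Without the filter, it was 0.70 (SE 2.04) in all VBs, 0.39 (SE 2.36) in VB type 1 and -0.46 (SE 2.74) in VB type 3 against parenchyma, and the sign in each of these 3 comparisons turned when single libraries were left out. Between VB types it was 2.00 (SE 1.90) for type 2 over type 1, -0.86 (SE 2.47) for type 3 over type 1 and -2.81 (SE 2.58) for type 3 over type 2. The lowest adjusted p of LAC6 in these 6 comparisons without the filter was 0.928 by edgeR's quasi-likelihood test.

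LAC5 was at the limit of detection. It had 0, 0 and 9 pairs in VB type 1, 0 pairs in all 3 libraries of VB type 2, 0, 0 and 2 pairs in VB type 3, and 0, 6 and 5 pairs in parenchyma. The highest CPM, 2.29 in parenchyma replicate 3, came from 5 pairs in the library where 3 pairs correspond to 1.37 CPM, and its 95% Poisson interval was 0.742 to 5.34 CPM. The 9 pairs in VB type 1 replicate 3 corresponded to 0.362 CPM (interval 0.166 to 0.687 CPM). LAC5 averaged 0.0525 ± 0.122 CPM in all VBs (SD, n = 9) and 0.829 ± 1.27 CPM in parenchyma (SD, n = 3). With so few pairs no fold change is given. The adjusted p of LAC5 was 0.228 or higher in all 7 comparisons by edgeR's quasi-likelihood test without the filter. A level below the limits given above was not detectable at this depth.

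The make-up of the 3 laccases varied within groups as well as between them. LAC8 gave 84.4 and 96.4% of their pairs in VB type 2 replicates 2 and 3, which held 513 and 111 pairs of the 3 genes, but 3.03% of 33 pairs in VB type 2 replicate 1. It gave 96.3 and 99.3% in VB type 3 replicates 2 and 3, of 511 and 293 pairs, while VB type 3 replicate 1 held 0 pairs of the 3 genes. In VB type 1 replicate 1 it gave 51.9% of 27 pairs, and it gave 0% in the other VB type 1 libraries, where LAC6 and LAC5 made up 2 and 26 pairs. In parenchyma it gave 0% of 40 pairs, 57.1% of 14 pairs and 0% of 5 pairs. No difference in make-up between groups was tested. Across the 12 libraries the correlation of log2 CPM was 0.24 between LAC8 and LAC6, -0.30 between LAC8 and LAC5 and -0.43 between LAC6 and LAC5. These values describe libraries that share groups and replicate numbers, and many are at the detection limit, where library size alone sets the value.

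Of 6 other laccase genes, Bradi2g54740 and Bradi2g54690 had the pattern most like that of LAC8. Bradi2g54740, known as LAC12, had 0, 0 and 13 pairs in VB type 1, 0, 189 and 0 pairs in VB type 2, 0, 103 and 59 pairs in VB type 3 and 0 pairs in every parenchyma library. Bradi2g54690, whose closest Arabidopsis gene in the study's tables is laccase 17, had 0, 0 and 3 pairs in VB type 1, 0, 149 and 0 pairs in VB type 2, 0, 11 and 10 pairs in VB type 3 and 0 pairs in parenchyma. Both were at 0 in replicate 1 of every VB type, as was LAC8 in VB type 3, and both were at 0 in VB type 2 replicate 3, where LAC8 had 107 pairs. Over the 12 libraries the log2 CPM of LAC8 correlated with that of Bradi2g54740 at r = 0.79 and with that of Bradi2g54690 at r = 0.74.

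The laccase with the highest level, Bradi3g59210, went the other way. This gene, closest to Arabidopsis laccase 14, had 0.134, 0.802 and 18.4 CPM in VB type 1, 0.0409, 11.2 and 0.0391 CPM in VB type 2, 0.382, 2.60 and 11.5 CPM in VB type 3 and 96.6, 274 and 50.8 CPM in parenchyma. The 9 VB libraries lay below the 3 parenchyma libraries without overlap. It was the only one of the 6 that passed the filter in all VBs against parenchyma, and it was lower in VBs by a log2 fold change of -4.85 (SE 1.28, adjusted p = 0.0452, edgeR's quasi-likelihood test). In the single VB types its log2 fold change was -4.41 in type 1, -5.21 in type 2 and -4.85 in type 3 against parenchyma, with adjusted p of 0.296, 0.289 and 0.0863 by edgeR's quasi-likelihood test with the filter and of 0.166, 0.0252 and 0.000279 without it. It was also called in VB type 1 by DESeq2, in VB type 2 with library totals and in VB type 3 by the likelihood ratio test, DESeq2 and library totals. The call in all VBs was lost with read counts in place of pairs and in every fit that left a library out other than VB type 1 replicate 3 and VB type 2 replicate 2, in which it stood at 1. The other 3 genes are closest to Arabidopsis laccase 7. Bradi4g11780 had at most 8 pairs in a library, and Bradi4g11770 and Bradi4g11850 had 0 pairs in all 12, with the limit that pairs mapping equally well to several transcripts were not counted.

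**Figure D4:**
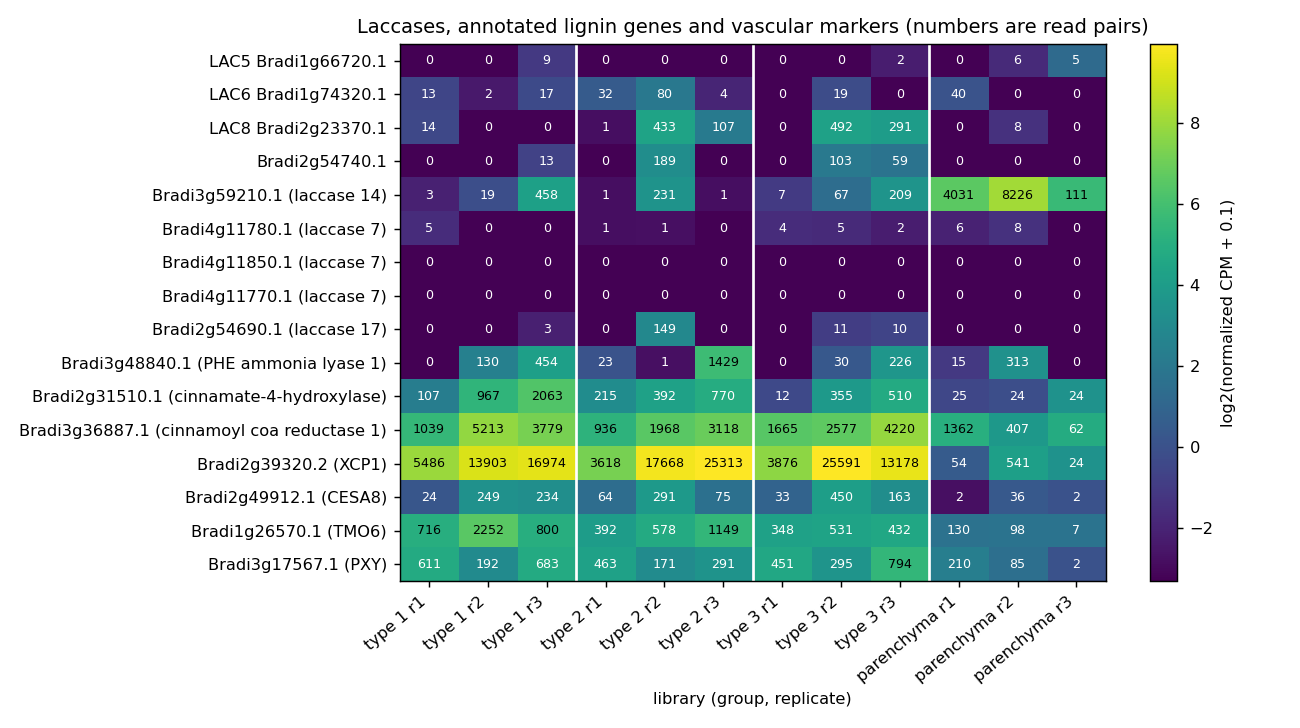
Read pairs (numbers) and log2(normalized CPM + 0.1) (color) of the 3 laccases, 6 other laccases, 3 annotated lignin genes and 4 annotated vascular markers in 12 libraries (columns, by group and replicate, r for replicate). The columns of VB types 2 and 3, replicates 2 and 3, hold 107 to 492 pairs of LAC8, and Bradi3g59210 is highest in the 3 parenchyma columns.

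The enzymes that supply monolignols were described beside the laccases. Of the 16 genes listed, 13 passed the filter in all VBs against parenchyma, 1 was called higher and 0 lower, and their median log2 fold change was 1.22 against 0.01 over all 16706 transcripts tested. The gene called was CCR1 (Bradi3g36887, cinnamoyl-CoA reductase, which starts the branch specific to monolignols), with a log2 fold change of 2.26 (SE 0.56, adjusted p = 0.0330, edgeR's quasi-likelihood test). CCR1 averaged 139.5 ± 87.4 CPM in VB type 1, 85.2 ± 42.7 CPM in VB type 2, 141 ± 79.5 CPM in VB type 3 (SD, n = 3 each), and 24.9 CPM in parenchyma, where the lowest library had 13.6 and the highest 32.6 CPM. C4H (Bradi2g31510, cinnamate 4-hydroxylase) had a log2 fold change of 2.69 (SE 1.25) and an adjusted p of 0.270 in the same edgeR test. Its means were 42.9 ± 39.1 CPM in VB type 1, 19.3 ± 10.6 CPM in VB type 2, 14.2 ± 13.8 CPM in VB type 3 and 4.12 ± 5.93 CPM in parenchyma (SD, n = 3 each). Unlike LAC8, CCR1 and Bradi2g31510 were thus well counted in VB type 1. A second gene listed as C4H, Bradi2g53470, went the other way. Its log2 fold change in all VBs was -2.42 (SE 0.91, adjusted p = 0.154, same edgeR test). This gene averaged 12.85 ± 11.85 CPM in all VBs (SD, n = 9) and 68.1 ± 75.3 CPM in parenchyma (SD, n = 3). The count called in all VBs was 0 without parenchyma replicate 1, 2 or 3, VB type 1 replicate 2, VB type 2 replicate 2 or VB type 3 replicate 3, and with library totals in place of TMM. In each VB type alone against parenchyma, 13 or 14 of the 16 genes were tested and 0 were called by edgeR's quasi-likelihood test with the filter. Of the 16 genes, 1 was called in VB type 1 by the likelihood ratio test, DESeq2 and library totals, and 1 in VB type 3 by the likelihood ratio test, DESeq2 and the quasi-likelihood test without the filter, where CCR1 had an adjusted p of 0.00345.

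The markers of the sampled tissue differed in how well they separated VBs from parenchyma. Of 6 markers, 4 were called higher and 0 lower in all VBs against parenchyma, with a median log2 fold change of 4.18. XCP1 was higher by 5.90 on the log2 scale (SE 0.98, adjusted p = 0.00356), and the procambium genes TMO6 (Bradi1g26570) by 3.33 (SE 0.53, adjusted p = 0.00246) and PXY (Bradi3g17567) by 2.64 (SE 0.68, adjusted p = 0.0413), by edgeR's quasi-likelihood test. CESA8 (Bradi2g49912), a cellulose synthase of the secondary wall, averaged 6.999 ± 5.16 CPM in VB type 1, 6.55 ± 6.54 CPM in VB type 2, 9.42 ± 7.85 CPM in VB type 3 and 0.721 ± 0.5998 CPM in parenchyma (SD, n = 3 each), and its log2 fold change of 3.45 in all VBs was not called (adjusted p = 0.154, edgeR). The fourth marker called was Bradi3g28350, listed as the secondary-wall cellulose synthase CESA4. Its log2 fold change of 7.40 in all VBs was the largest of the 6 (SE 1.52, adjusted p = 0.0119, edgeR), with 2 pairs in parenchyma. Bradi4g30540, listed as CESA7, was not called, at 4.92 (SE 2.05, adjusted p = 0.208, edgeR). It had 0 CPM in VB type 3 replicate 1 and 0.457 CPM in parenchyma replicate 3. CESA8 also overlapped, with 1.07 CPM in VB type 1 replicate 1 and 1.20 CPM in parenchyma replicate 2. XCP1 was also called in VB type 3 alone, at 6.02 (SE 0.98, adjusted p = 0.0289, edgeR). Among the markers, the correlation with LAC8 over 12 libraries was 0.56 for XCP1, 0.55 for CESA8, 0.29 for TMO6, 0.26 for PXY, 0.78 for Bradi4g30540 and 0.54 for Bradi3g28350. Of the 16 lignin genes, the one that followed LAC8 most closely was Bradi3g30590, at r = 0.79, with 0, 1 and 4 pairs in VB type 1, 0, 42 and 0 pairs in VB type 2, 0, 19 and 20 pairs in VB type 3 and 0 pairs in parenchyma. It too was chosen after its values were seen.

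Across all 16706 transcripts tested in the 12 libraries, those whose log2 CPM followed LAC8 most closely were Bradi5g17220.2 (r = 0.85 over 12 libraries and 0.84 over the 9 VB libraries), Bradi4g35780.3 (0.85 and 0.88), Bradi1g56510.1 (0.84 and 0.83), Bradi4g04580.1 (0.84 and 0.84) and Bradi1g59550.1 (0.83 and 0.84). Of these, Bradi1g59550.1 averaged 23.3 CPM over the VB type 2 and 3 libraries, 2.53 CPM in VB type 1 and 0.183 CPM in parenchyma, and Bradi4g35780.3 averaged 7.54 CPM over the VB type 2 and 3 libraries, 1.39 CPM in VB type 1 and 0.912 CPM in parenchyma. For LAC6 the closest was Bradi2g36200.1 (0.87 and 0.82), and for LAC5 it was Bradi5g18206.1 (0.91 and 0.72). The correlations are the highest among many, over libraries that share groups, and describe these libraries only.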

How the data were processed

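RNA was sequenced from 12 libraries grouped by their sample labels. The authors used Trimmomatic for trimming and sortMeRNA against ribosomal reads, aligned with Bowtie 2 in local mode to 34310 transcripts and deposited, per transcript, unnormalized counts of read pairs with both reads mapped unambiguously, and counts of single reads. Near-identical copies and overlapping transcripts are therefore uncertain; the labels call the libraries not stranded and the paper calls them stranded. The deposited tables also hold the transcript length, used for CPM per kilobase.

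For pair counts, edgeR 4.0.16 was run in R 4.3.3 (TMM, quasi-likelihood test, Benjamini-Hochberg threshold 0.05) after a filter of 1 CPM in 3 of 6 or 6 of 12 libraries. Each pair of groups was fitted alone, and all VBs against parenchyma was fitted on 12 libraries by averaging the VB type coefficients. Members under the filter were tested without it, and no fold change is given for a transcript under 10 pairs in every library. SE was the absolute log2 fold change over the square root of the F statistic, not a standard error given by the fit. Correlations used log2 CPM with a prior count of 2. Alternatives were edgeR's likelihood ratio test, DESeq2 1.42.0, other scalings and filters, a replicate block, removal of the dominant transcript, read counts and each library left out. The code was tested on simulated counts. Plots used matplotlib 3.10.9 under Python 3.11.15.

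The members and lists were chosen with earlier results of these data known. Named besides the members were the 5 transcripts most correlated with each (the closest given for LAC5 and LAC6) and the other laccases. Also named were lignin genes and markers that the study's tables or text annotate, and further genes of these lists where their values are given. Bradi2g54690 and Bradi2g54740 were singled out after their values were seen. Bradi2g37130 was left out of the laccases because its annotation differed between the study's tables. None of the identifiers (0 of 34310) matched the reference table of gene names, so no coordinates or sequences are given.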

Additional observations from a re-analysis of the deposited data

Results flagged for a closer look

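Over the 9 VB libraries, a single library lay far from the others for 2 of the 3 laccases. LAC6 was 3.88 CPM in VB type 2 replicate 2 and 1.31 CPM in the next library. LAC5 was 0.362 CPM (9 pairs) in VB type 1 replicate 3 and 0.110 CPM (2 pairs) in the next, and 0 in the other VB libraries. Among all 31 listed genes checked in this way, 11 had such a library. The rate of this check, about 1 in 20, holds for normally spread values of a single group. These libraries came from 3 VB types and many values were at or near 0. The count of 11 is therefore not set against that rate.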

How the results depend on the processing

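LAC8 kept its direction under all alternatives tried in VB types 2 and 3 against parenchyma and against VB type 1. Its log2 fold change, with an adjusted p below 0.05, was 6.64 by both the likelihood ratio test and DESeq2 in VB type 3 against parenchyma and 6.18 by DESeq2 in VB type 2. A fit without replicate 1 of every group, added after the low LAC8 values of those libraries were seen, gave 6.37 in VB type 3, and its adjusted p follows from that choice and is no support. With one library left out it lay between 5.81 and 10.94 in VB type 3 and between 4.29 and 10.58 in VB type 2, the upper ends being fits in which parenchyma held 0 pairs. It reached -4.46 to 5.28 in VB type 1 and 2.75 to 8.95 in all VBs against parenchyma. The upper ends, 5.28 and 8.95, were likewise fits in which parenchyma held 0 pairs. The value of 2.75 came from the fit without VB type 1 replicate 1 (SE 89.95) and is not an estimate. In VB type 3 against VB type 2 it reached 2.44 without VB type 2 replicate 2, and the sign turned in 2 fits, at -0.11 without VB type 2 replicate 1 and -0.06 without VB type 3 replicate 2. LAC6 reached -1.15 to 6.66 in all VBs, -0.21 to 6.25 in VB type 1 and -5.98 to 5.27 in VB type 3 against parenchyma with one library left out, and was 0.037 in VB type 3 with the replicate block. Same-numbered libraries had mean correlations of -0.014 to 0.262 over the pairs of groups, and in no pair were all 3 above 0.1. By this rule the number was not taken to pair them. For VB types 1 and 2, 1 and 3, and 2 and 3, r was 0.47, 0.23 and 0.27 in replicate 1. It was 0.016, -0.049 and 0.011 in replicate 2 and 0.29, 0.30 and 0.22 in replicate 3. What part of the LAC8 pattern goes with the replicate number was not tested. The block changed no call of a laccase (LAC8 adjusted p 0.167 in VB type 3 and 0.498 in VB type 2 against parenchyma, edgeR's quasi-likelihood test).

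The count of transcripts called varied more. In all VBs, VB type 1, VB type 2 and VB type 3 against parenchyma it was 839, 0, 20 and 145. With one library left out it lay between 573 and 827, 0 and 8, 0 and 11, and 0 and 144. It was 1677, 653, 556 and 702 by the likelihood ratio test, 1829, 806, 749 and 929 by DESeq2 and 145, 70, 37 and 32 with library totals. Without the filter VB types 1, 2 and 3 gave 112, 360 and 570. In VB type 2 it was 5 with 1 CPM in a majority of libraries, 6 with the block, 61 without the dominant transcript and 7 with read counts, and in VB type 3 it was 1 with the block. Between VB types (2 and 1, 3 and 1, 3 and 2) it was 0 by the quasi-likelihood test, 19, 24 and 4 by the likelihood ratio test and 16, 21 and 14 by DESeq2. The causes were not tested.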
